A study of Capra hircus with 2 samples.

Results

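miR-490 is a microRNA (miRNA) that was listed with both of its arms in the small RNA of goat endometrium, and both arms were lower in receptive endometrium (R) than in pre-receptive endometrium (P). Its members were found by name, as every known miRNA called miR-490, whatever its species prefix, arm or end. They were 2 of the 587 distinct known names: bta-miR-490_R+1, the 3p arm, and hsa-miR-490-5p, the 5p arm. The names give the database entry that a goat sequence matched, with bta for cow and hsa for human, and R+1 marks 1 base more at the 3′ end than that entry has. The miRNA was taken up because its values in both libraries were already known to be lower in R, so every comparison of R with P is a description without a test.

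Xinong Saanen dairy goats aged 24 months were mated after their estrus had been synchronized, and endometrium was taken from 10 goats on gestational day 5 (P) and from 10 others on gestational day 15 (R). In each phase the RNA of 9 goats went into 3 mixed samples, and the deposited tables give 1 library per phase, which was sequenced 3 times. There was therefore no replicate, and neither the spread between goats nor that between pools can be seen. The known miRNAs held 1904242 reads in the R library and 4046632 reads in the P library.

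A miRNA is cut from a hairpin-shaped precursor whose stem holds both arms, and usually 1 arm is loaded into the silencing complex while the other is degraded. The loaded arm binds messenger RNAs mainly through its seed, the bases 2 to 8 from its 5′ end, and lowers their translation or stability. miR-490 is encoded within CHRM2, the gene of a muscarinic acetylcholine receptor of heart and smooth muscle, and has been studied mainly in smooth muscle, heart and tumours. The endometrium consists of luminal and glandular epithelium, stroma and vessels, and lies on the smooth muscle of the myometrium.

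The mature sequences of both arms are shown because the targets predicted for each arm depend on its seed, and the capitals mark the seed. They were taken from the deposited table of known miRNAs, 5′ to 3′, with T for U as in that table.
bta-miR-490_R+1: cAACCTGGaggactccatgctgt
hsa-miR-490-5p: cCATGGATctccaggtgggt

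The 3p arm was 23 nt long with a GC content of 56.5%, and the 5p arm was 20 nt long with a GC content of 60.0%. Both were richer in GC than the median known sequence, at 45.5%. Of the 554 distinct known sequences, 100 had a higher GC content than the 3p arm and 67 had a higher one than the 5p arm. The seeds of the arms differed from each other, AACCTGG in the 3p arm and CATGGAT in the 5p arm. Neither seed was found in another known sequence or in the 621 candidate miRNAs that the authors predicted from the genome. A seed held by no other sequence was common, as 68.8% of the known sequences had one. Over the shorter run of bases 2 to 7, no other known sequence and 1 candidate had the bases of an arm, those of the 5p arm. This candidate, PC-5p-215676_2, was chosen for naming after this match was seen, and the shared bases are in capitals.
PC-5p-215676_2: tCATGGAccagctgcttcctc

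The end of the 3p arm differed from the database entry. The goat sequence held the 22 nt of the entry bta-miR-490 and 1 base more at its 3′ end, which the capital marks and which leaves the seed as it is.
bta-miR-490_R+1: caacctggaggactccatgctgT

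The arms paired with each other as the strands of 1 hairpin do. In the predicted duplex 15 base pairs formed, 14 of them Watson-Crick pairs and 1 a G-U wobble, at a free energy of -23.4 kcal/mol. The paired bases are in capitals in the sequences that follow, which show how far the seeds lie within the duplex.
hsa-miR-490-5p: cCATGGATCTCCAGGTgggt
bta-miR-490_R+1: caACCTGGAGGacTCCATGctgt

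All 7 seed bases of the 5p arm and 6 of the 7 seed bases of the 3p arm were paired. Over the 80 hairpins with enough reads of both arms, described further on, the median free energy of this duplex was -22.4 kcal/mol, and 31 hairpins had a lower one than miR-490. The strength of pairing between the arms of miR-490 was therefore near the middle of the hairpins listed.

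The precursor is shared by distant mammals in the deposited table of conservation. Of the 23 species in that table, 10 had a precursor named mir-490, among them cow, pig, horse, dog, mouse, human and platypus. Pig was the 1 species with 2 such precursors. The median over the 291 precursor numbers of the table was 7 species, and 78 numbers were listed in more species than mir-490. In the RefSeq gene table of goat (assembly ARS1.2), MIR490 lay within CHRM2, with PTN and MTPN as the nearest protein-coding genes on either side of CHRM2. No other miRNA gene lay within 10 kb of it. A position within a protein-coding gene was shared by 43.9% of the miRNA genes in that table, 116 of 264. The mRNA of CHRM2 is not measured by small RNA libraries.

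The 3p arm was the abundant arm in both libraries. Normalized expression (NE), the authors' unit, is the number of reads divided by 1 size factor per library, and 1 read was worth 1.16 NE in P and 0.860 NE in R. The methods of the study describe NE as reads over the clean reads of a library, which the deposited values do not follow, and ratios on that basis are given further on. Intervals are 95% exact intervals that cover counting error alone. bta-miR-490_R+1 had 1465 NE in the P library (1386 to 1549, 1260 reads) and 103 NE in the R library (85.6 to 123, 120 reads). It was 14.2-fold lower in R (11.8 to 17.3), a log2 ratio of R to P of -3.83 (-4.11 to -3.56). The intervals of its levels in the libraries lay far apart. Its rank by NE was 59 among the 502 known names detected in P and 166 among the 532 detected in R.

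hsa-miR-490-5p was the minor arm and moved the same way. It had 93.0 NE in the P library (73.8 to 116, 80 reads) and 10.3 NE in the R library (5.33 to 18.0, 12 reads). It was 9.02-fold lower in R (4.89 to 18.2), a log2 ratio of -3.17 (-4.18 to -2.29). The wide interval of this arm comes from its 12 reads in R, and it takes in the ratio of the 3p arm. Its rank was 157 of 502 in P and 305 of 532 in R. Both arms were above the limit of 3 reads in both libraries, a limit of 2.58 NE in R and of 3.49 NE in P.

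In order of level as deposited, the 3p arm in P stood highest and the 5p arm in R lowest. Between them, the 3p arm in R and the 5p arm in P had overlapping intervals. As a share of the reads of known miRNAs they did not overlap, with 0.0063% (0.00522 to 0.00754) for the 3p arm in R and 0.00198% (0.00157 to 0.00246) for the 5p arm in P. Summed, the arms had 1558 NE in P and 114 NE in R, 13.7-fold lower in R (11.5 to 16.5).

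**Figure D1:**
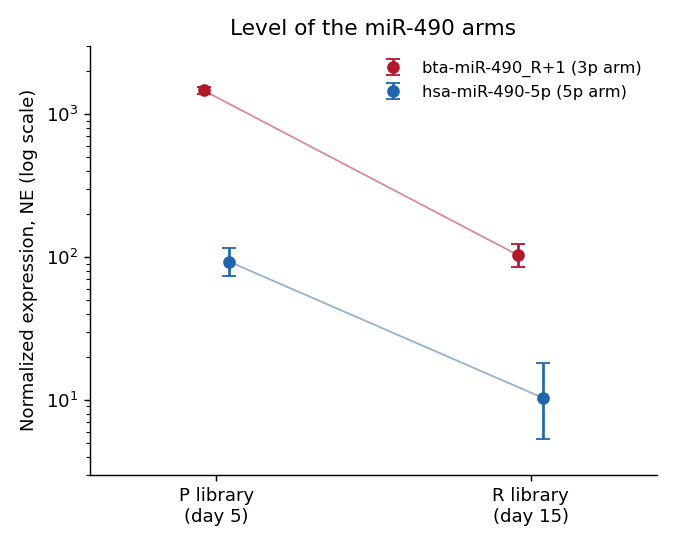
Normalized expression (NE, log axis) of the miR-490 arms in the P library (day 5) and the R library (day 15), with 95% exact Poisson intervals that cover counting error; lines join the values of 1 arm. The 3p arm lies at 1465 and 103 NE and the 5p arm at 93.0 and 10.3 NE.

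Both of the 2 arms were more than 2-fold lower in R, as were 51 of the 351 known names above 0 in both libraries with at least 10 reads over both, which is 14.5%. More than 2-fold higher were 80 names, or 22.8%. Since the miRNA was chosen from this contrast, nothing is read from its count against that share. The median log2 ratio of the 351 names was 0.05, and their range was -7.23 to 6.82. The lowest ratios came from names with few reads. Of the 274 names with at least 10 reads in each library, the 3p arm had the second lowest ratio and the 5p arm the fourth lowest. These 274 names had quartiles of -0.69 and 0.72 and a 5th percentile of -1.55.

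The size of the ratio depended on how the libraries were scaled, and its direction did not under the 4 other scalings tried. Scaled to the clean reads of each library, the basis described in the methods, the 3p arm was 8.25-fold lower and the 5p arm 5.24-fold lower. Scaled to the summed reads of the known miRNAs, they were 4.94-fold and 3.14-fold lower. The most abundant known name, aja-miR-143_1ss22GT, held 39.7% of those reads in P and 17.7% in R. Without it in the sum the arms were 6.74-fold and 4.28-fold lower. These scalings moved every log2 ratio up by the same amount, 0.78, 1.52 and 1.08 in the order given. Names more than 2-fold lower against higher were 51 against 80 as deposited, 21 against 162, 12 against 249 and 19 against 197. The distance of the arms from the median of the 351 names is the same under each scaling, -3.88 for the 3p arm and -3.23 for the 5p arm on the log2 scale.

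**Figure D2:**
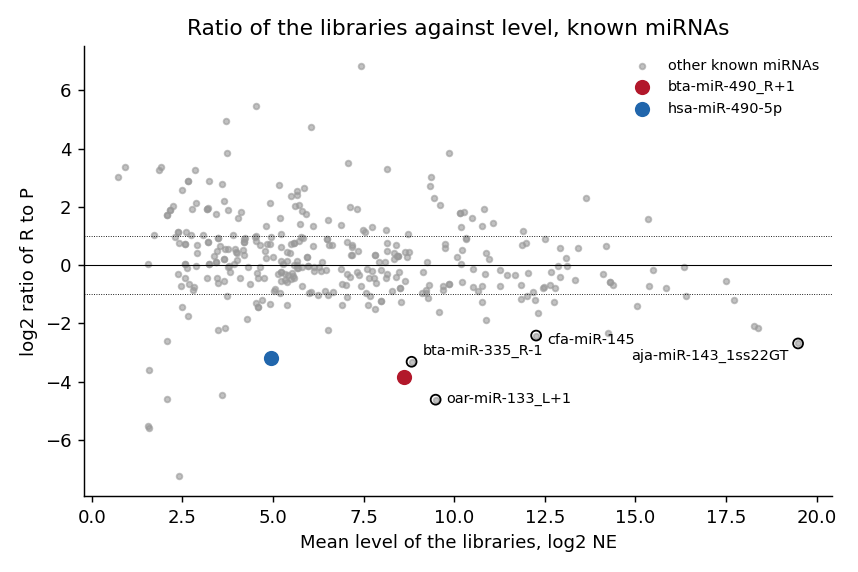
log2 ratio of R to P (vertical) against the mean log2 NE of the libraries (horizontal) for the 351 known names with at least 10 reads over both libraries and above 0 in both; dotted lines mark 2-fold. The arms of miR-490 are at -3.83 and -3.17, and the open circles mark the names nearest to them in ratio among those with at least 10 reads in each library.

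The names of similar level in P are given beside the arms as a description. In P, 32 other names lay within 2-fold of the 3p arm. Their median log2 ratio was -0.44, and 4 of them were more than 2-fold lower in R. The lowest of the 32, at -3.32, was bta-miR-335_R-1. Within 2-fold of the 5p arm lay 62 names with a median of -0.08, of which 6 were more than 2-fold lower. Of these, 2 were lower than the 5p arm, and the lowest was at -7.23. No name of either group was at 0 in R.

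Among the names with at least 10 reads in each library, those closest to miR-490 in ratio were few. bta-miR-335_R-1, a miRNA encoded within the imprinted gene MEST, had 1430 NE in P and 143.6 NE in R. Its log2 ratio of -3.32 (-3.56 to -3.08) differed from that of the 5p arm by 0.14 and from that of the 3p arm by 0.51. Apart from the arms themselves it was the nearest name to both, and its level in P was close to that of the 3p arm. oar-miR-133_L+1, known from heart and skeletal muscle, had 3558 NE in P and 144.9 NE in R in each of its 2 entries, a log2 ratio of -4.62 (-4.78 to -4.46). aja-miR-143_1ss22GT, known from smooth muscle and other mesenchymal cells, had 1866274 NE in P and 289634 NE in R, a log2 ratio of -2.69. For the 5p arm the third nearest was cfa-miR-145, from the same gene cluster as miR-143, with 11339 NE in P, 2123 NE in R and a log2 ratio of -2.42. This likeness rests on 1 ratio of 2 libraries, and miR-133, miR-143 and miR-145 also stand in the muscle lists given further on.

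The ratio of the arms to each other does not depend on the scaling. The 3p arm had 15.8 times the reads of the 5p arm in P (12.6 to 20.0) and 10.0 times in R (5.52 to 19.9). It thus made up 94.0% of the reads of both arms in P and 90.9% in R. The 3p arm was the higher arm in both phases. The ratio in R was 0.635 times that in P (0.332 to 1.32), a log2 change of -0.66 (-1.59 to 0.40). As this interval includes no change, a shift between the arms was not detectable at this depth. The ratio counts reads and not molecules, since arms of different sequence may enter a library unequally.

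To place these values, the known names were joined by number and letter into 137 hairpins with both arms listed, of which 80 had at least 10 reads over the libraries for each arm and were above 0 in both libraries. As deposited, both arms were lower in R in 29 hairpins, both were higher in 24, and the arms moved in opposite directions in 27. This balance turned with the scaling, with both lower in 8 and both higher in 54 when scaled to clean reads, and 3 against 74 when scaled to the summed known reads. Both arms were more than 2-fold lower as deposited in 4 hairpins, or 5.0%, and these were miR-490, miR-335, miR-145 and miR-143, the last 3 named after their values were seen. Scaled to clean reads 2 of them were, miR-490 and miR-335, and scaled to the summed known reads miR-490 was the 1 such hairpin. The mean log2 ratio of the arms of miR-490, -3.50, was the lowest of these 80, among which miR-133 is missing because 1 of its arms is named with a letter and the other without. Joined by number alone, a choice made after seeing the data, hsa-miR-133a-5p (-5.52, with 1 read in R) and oar-miR-133_L+1 (-4.62) had a lower mean of -5.07. With this and the 2 other hairpins so added, both arms were more than 2-fold lower as deposited in 5 of 83, or 6.02%, and miR-490 had the second lowest mean. The 5 became 3 when scaled to clean reads and 2 when scaled to the summed known reads. Across hairpins, which share the libraries and are no replicates, Pearson's r of the log2 ratios of the arms was 0.56.

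In the other 3 of these hairpins the log2 ratios of the arms lay further apart than in miR-490. As absolute distances they stayed within what the interval of miR-490 (-1.59 to 0.40) allows. With their sign, the changes of miR-335 and miR-145 given below lay above that interval. In miR-335 the log2 ratio was -3.32 for the 5p arm and -2.21 for the 3p arm, and in miR-145 it was -2.42 and -1.62. In miR-143 it was -1.28 for the 5p arm and -2.69 for the 3p arm. The arm ratio of miR-335 differed between the libraries by 1.11 on the log2 scale (0.56 to 1.63), that of miR-145 by 0.79 (0.63 to 0.96) and that of miR-143 by -1.41 (-1.63 to -1.19). None of these 3 intervals included 0, while that of miR-490 did. In miR-335 and miR-145 the abundant arm was the 5p arm, and in miR-143, as in miR-490, it was the 3p arm. In each of the 4 hairpins the more abundant arm had the lower log2 ratio. How many of the 80 hairpins shared this was not counted, so nothing is read from it. In miR-133, joined by number alone, the abundant 3p arm had the higher log2 ratio, -4.62 against -5.52 for the 5p arm.

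Over the 80 hairpins the median absolute log2 change of the arm ratio was 0.72, and that of miR-490 was 0.66. A larger change was seen in 44 hairpins and a smaller one in 35. The extremes were miR-154b and miR-340, whose arm ratios changed by 3.71 (0.84 to 9.14) and 3.36 (1.42 to 5.50), and miR-382 and miR-376e, which changed by 0.01 each. By this value miR-490 lay in the middle, but the interval of its change (-1.59 to 0.40) is too wide to fix its place. The 3p arm was the higher arm in both libraries in 30 hairpins, as in miR-490, and the 5p arm in 45, while 5 changed their higher arm. A stronger preference for 1 arm than in miR-490 was seen in 34 hairpins in R and in 31 in P.

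**Figure D3:**
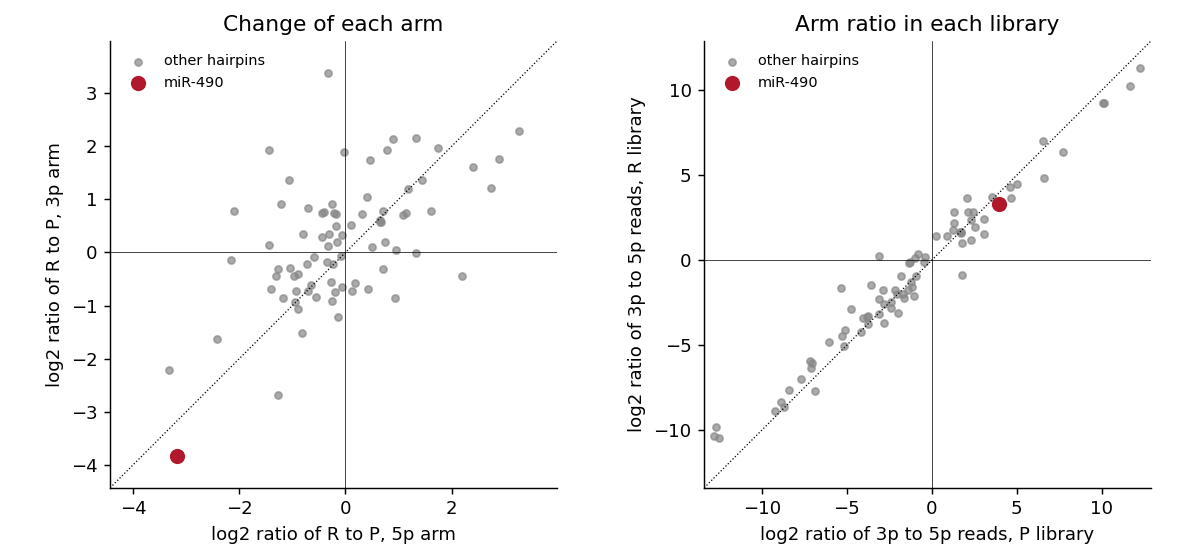
The 80 hairpins with at least 10 reads per arm: log2 ratio of R to P of the 3p arm against that of the 5p arm (left), and log2 ratio of 3p to 5p reads in the R library against the P library (right), with dotted lines of equality. miR-490 has a mean of -3.50 over its arms on the left and a change of -0.66 on the right; miR-133, with a mean of -5.07, is not plotted because its arms are not joined by letter.

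miRNAs known from muscle were lower in the R library together with miR-490, and their part in its lower level was not tested. In bulk tissue, fewer cells of a type and less RNA per cell cannot be told apart. The list of striated muscle (miR-1, miR-133, miR-206, miR-208 and miR-499) had 7 known names, of which 6 were above 0 in both libraries. All 6 were lower in R as deposited, 5 of them more than 2-fold, with a median log2 ratio of -5.07. Of these 6 names, 4 had 1 read or less in R. The median was -2.83 over the 2 names with at least 10 reads in each library and -1.03 over the 3 names other than miR-133. Scaled to clean reads 5 of the 6 stayed lower, and 4 did with either scaling to known reads. The summed level of the list was 3796 NE in P and 211 NE in R, with each name at the NE of 1 entry. Names listed for several precursors share their reads among the entries, and with all entries added the sums were 7395 NE in P and 356 NE in R. oar-miR-133_L+1 gave 93.7% of the sum of single entries in P and 68.8% in R. The other member at 100 NE or more was hsa-miR-499a-5p, with 130 NE in P and 63.6 NE in R. Of the defining members, hsa-miR-1_1ss1TC had 36 reads in P and 1 read in R, cfa-miR-208a_R-1 had 1 read in P and was at 0 in R, and no name was a miR-206.

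The list of smooth muscle (miR-143 and miR-145) had 5 names, all above 0 in both libraries. All 5 were more than 2-fold lower in R as deposited, with a median of -1.62, and all 5 stayed lower when scaled to clean reads. Scaled to the summed known reads, 3 were lower and 2 higher, at a median of -0.10, and without aja-miR-143_1ss22GT in that sum 4 were lower and 1 higher. The summed level was 1879528 NE in P and 292431 NE in R, of which aja-miR-143_1ss22GT gave 99.3% and 99.0%. Beside it and cfa-miR-145, the members at 100 NE or more were the opposite arms. hsa-miR-143-5p_1ss22TA had 577 NE in P and 238 NE in R, and hsa-miR-145-3p_L-2R+1 had 1335 NE in P and 433 NE in R. By the log2 ratios without their intervals, both arms of miR-490 were lower than each of the 5, and 4 of the 6 striated muscle names were lower still. The interval of the 5p arm (-4.18 to -2.29) takes in the ratios of aja-miR-143_1ss22GT (-2.69) and cfa-miR-145 (-2.42). Apart from oar-miR-133_L+1, the striated muscle names lower still had 1 read or less in R.

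miRNAs known from epithelium moved the other way under every scaling tried. Of the 17 epithelial names (miR-200, miR-141, miR-429, miR-203, miR-205, miR-375, miR-183, miR-96 and miR-182), 14 were above 0 in both libraries, and all 14 were higher in R, with a median log2 ratio of 2.91. Their summed level was 6997 NE in P and 38636 NE in R, most of it from hsa-miR-141-3p_R-1 with 5791 NE in P and 28337 NE in R. The list of ciliated epithelium (miR-34 and miR-449) had 10 names, of which 7 were above 0 in both and higher in R, with a median of 1.35. Its sum was 2071 NE in P and 7406 NE in R, with hsa-miR-34c-5p highest at 1090 NE in P and 2778 NE in R. miR-490 was thus lower in the library in which epithelial names were higher, and the part of this in its ratio was not tested.

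As deposited, the medians of the other lists lay nearer to 0 than those of muscle and epithelium. Scaled to the summed known reads they did not, at 1.47 for fibroblasts and stroma, 1.36 for red blood cells, 2.70 for leukocytes and 1.99 for endothelium, against -0.10 for smooth muscle. The names of fibroblasts and stroma (miR-199 and miR-214), 7 in all, summed to 97155 NE in P and 97321 NE in R, mostly oar-miR-199a-3p. Their median of -0.05 was above 0 under each of the 4 other scalings. The 6 names of red blood cells (miR-451, miR-144 and miR-486), led by cgr-miR-486-5p, summed to 9425 NE in P and 6107 NE in R. Their median of -0.16 was above 0 under 3 of the other scalings. As deposited, 3 of the 6 were lower in R and 3 higher, and ssc-miR-451_L+3R-1 had 1 read in P and 2 in R. Of the 6 names, aja-miR-144 and hsa-miR-144-3p had equal values, as had cgr-miR-144_L+2R-3 and hsa-miR-144-5p_L+2R-3. Each of these names entered the sums and the median. The 5 names of leukocytes (miR-142, miR-223, miR-150, which had no name, and miR-155) were led by cgr-miR-142-5p_L-2R+1. They summed to 4920 NE in P and 7463 NE in R (7629 and 13576 NE with all entries added). Above 0 in both libraries were 3 of them, with a median of 1.17. As deposited, the 2 higher in R were the arms of miR-142, while hsa-miR-155-5p was lower, at -0.71 (-0.81 to -0.62). The 5 names of endothelium (miR-126), led by hsa-miR-126-5p, summed to 21288 NE in P and 32841 NE in R, with a median of 0.47. Of the 8 lists, the muscle lists were those in which every name above 0 in both libraries was lower in R as deposited, as both arms of miR-490 were. Names of epithelium, stroma, vessels and blood were detected in both libraries labelled endometrium.

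**Figure D4:**
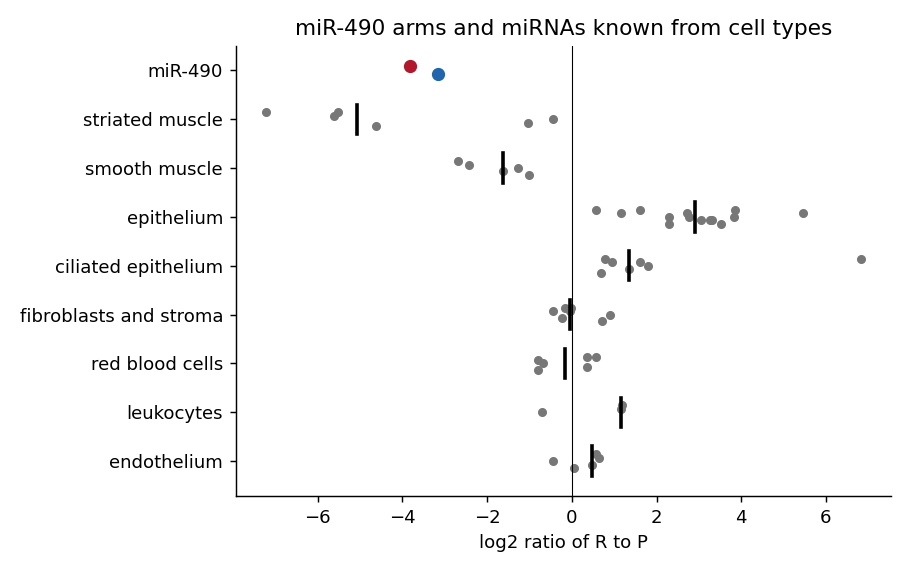
log2 ratio of R to P as deposited, for the arms of miR-490 (red, 3p; blue, 5p) and for each name above 0 in both libraries of 8 lists of miRNAs known from cell types (grey points; bars are medians). The muscle lists have medians of -5.07 (striated; -2.83 with at least 10 reads in each library) and -1.62, and the epithelial lists medians of 2.91 and 1.35.

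Targets had been predicted by the authors, from sequence alone, for 33 miRNA names that were lower in R and 109 that were higher. The deposited pairs of a miRNA and a target numbered 87779 and covered 7608 target identifiers. The 3p arm of miR-490 was paired with 813 identifiers, 10.7% of all, and the 5p arm with 649, or 8.53%. Over all these names the number of targets had a median of 578.5 and a range of 81 to 1331, so that the 3p arm ranked 37 and the 5p arm 61. Both arms therefore had somewhat longer lists than the middle name, and the abundant arm had the longer one. The deposited predictions do not pair the identifiers with gene names, so no target is named. The paper names the genes of some identifiers, which were not used here.

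**Figure D5:**
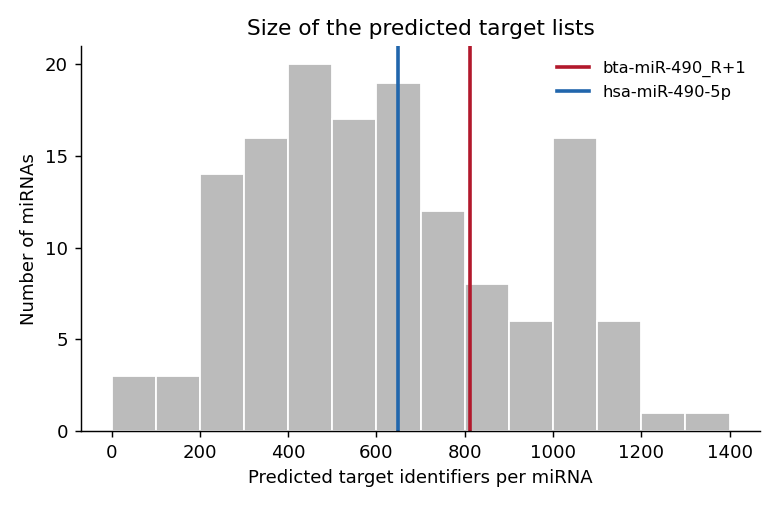
Number of miRNAs by the number of target identifiers predicted for them, over all names with predicted targets. The lines mark the 3p arm (813) and the 5p arm (649) of miR-490.

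The arms shared 119 identifiers, which is 14.6% of the list of the 3p arm and 18.3% of the list of the 5p arm. Together they covered 1343 identifiers, or 17.7% of all. Such a share was usual. The median share of the 3p list found in the list of another name was 13.4%, and by this share the 5p arm ranked 59 among the other names. The median share of the 5p list found in another list was 14.6%, and the 3p arm ranked 39. In the 12 other hairpins with both arms in the target table, the shares ranged from 8.86% to 31.8% of the 3p list and from 4.79% to 26.0% of the 5p list. The arms of miR-490, with their different seeds, thus had lists that overlapped about as much as lists of other names did.

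The lists that covered most of the targets of miR-490 were long ones. They belonged to names that were higher in R, as 76.8% of all names with targets were. For the 3p arm they were those of hsa-miR-153-5p_L+1_2ss15G-16TC, with 220 shared identifiers (27.1% of the 3p list), bta-miR-15b, with 26.3% of it, and the candidate PC-5p-94605_6, with 213 (26.2%). For the 5p arm they were bta-miR-15b, with 209 shared identifiers (32.2% of the 5p list), and bta-miR-204 and hsa-miR-204-5p, with 196 each (30.2%), which are names of 1 sequence with the same 1100 targets. The list of bta-miR-15b was the longest of all, with 1331 identifiers. Of the names given above as nearest in ratio, aja-miR-143_1ss22GT shared 24.4% of the 3p list and 24.8% of the 5p list, and cfa-miR-145 shared 23.0% and 25.1%. bta-miR-335_R-1 shared 17.6% and 18.6%. oar-miR-133_L+1 shared 11.6% and 12.6%, with the shortest list of these as deposited, 485 identifiers. The paper gives a longer list for this name. Its number equals the deposited lists of oar-miR-133_L+1 and oar-miR-133_L+1R-2, the latter with 471 identifiers, added up. The median share of the 3p list was 14.0% over names lower in R and 12.8% over names higher in R, and that of the 5p list was 14.8% and 14.5%.

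Few of the predicted targets of miR-490 were its own, as was usual in the table. A target identifier of the 3p arm was predicted for a median of 18 names and one of the 5p arm for a median of 20, and the 119 shared identifiers for a median of 27. The corresponding median over all lists was 19, with a range of 10 to 28, so that the lists of both arms were ordinary in this respect. Of the 1343 identifiers of either arm, 1173 (87.3%) were also predicted for another name lower in R and 1327 (98.8%) for a name higher in R. Of all identifiers, 71.3% were predicted for a name lower in R other than miR-490 and 97.5% for a name higher in R. Predicted for miR-490 alone were 11 identifiers, 7 for the 3p arm and 4 for the 5p arm. That is 0.861% of the 3p list and 0.616% of the 5p list, and over all pairs of a miRNA and a target the share with an identifier of 1 name alone was 0.709%. For each arm 88.8% of the list was predicted for another name lower in R, beside a median of 89.5% over all lists. The predictions are by sequence, and no messenger RNA or protein was measured with these libraries.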

How the data were processed

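Filtered reads were matched by the authors to precursors of miRBase 20, and a normalized signal (NE) of each known miRNA was deposited per library. The fold change and P-value columns of the authors' comparison were not used. Of the candidate table the sequences alone were used, since it names the libraries in the opposite way to the differential expression table, whose values equalled those of the known table for all 340 shared names. Targets were predicted by the authors with TargetScan 5.0 and miRanda.

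NE was divided by the worth of 1 read to recover reads. A name listed for several precursors (54 of 587) entered once, its NE unchanged and the reads of its entries added up. Within 0.05 of a read, 85.2% of the names detected in R and 87.5% of those in P had whole reads, so no count test was run. With 1 library per phase no P-value was computed. Intervals of levels are exact Poisson intervals and those of ratios Clopper-Pearson intervals, and that of the change of arm ratio is an exact conditional one. They were checked on simulated data, but no value of that check is given here. Names of the same number and letter formed a hairpin, and sequences sharing a run of 12 bases 1 arm of it. Duplexes were predicted with RNAduplex (ViennaRNA 2.7.2). Computations were run in Python 3.11.15 with scipy 1.17.1, numpy 2.4.6 and pandas 2.3.3, and plots were drawn with matplotlib 3.10.9.

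The miRNAs named were both arms, the 3 names nearest to each arm in log2 ratio, the most abundant name, the leading member of each list and the muscle members of at least 100 NE, the 3 names covering most of each target list, and the hairpins with the 2 largest and 2 smallest changes of arm ratio. The members and lists were chosen with earlier results of these data known. The alternatives were other scalings, read filters, pseudocounts and ways of counting. Precursor sequences were not analysed here.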

Additional observations from a re-analysis of the deposited data

How the results depend on the processing

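No paired analysis was possible because there was 1 library per phase. Both arms of miR-490 stayed lower in R under every scaling and pseudocount tried. The log2 ratio of the 3p arm was -3.04 when scaled to clean reads, -2.30 to the summed known reads and -2.75 to that sum without the most abundant name. For the 5p arm the last 2 gave -1.65 and -2.10. These shifts follow from the scalings themselves. The share of names more than 2-fold lower was 5.98% when scaled to clean reads and 3.42% to known reads, and 2.85% were more than 8-fold lower, a fold chosen after seeing the data. Scaled to clean reads, the median log2 ratios were -4.29 for striated muscle, -0.84 for smooth muscle, 3.69 for epithelium, 2.13 for ciliated epithelium, 1.95 for leukocytes and 1.25 for endothelium. Those of fibroblasts and of red blood cells reversed, to 0.73 and 0.62. With members of at least 10 reads in each library, the medians were -2.83 for striated muscle (2 names) and -0.68 for red blood cells, as fewer names entered. Without the names of miR-133, a choice made after seeing the data, striated muscle had a median of -1.03 over 3 names.

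The other 23 values stayed within the interval of the value reported or, for counts and list medians, within the limits set. They include the arm ratios with a pseudocount and the share of hairpins with a larger change than miR-490, also among hairpins pairing at -15 kcal/mol or below and with names joined by number alone, both chosen after seeing the data. Counting targets by transcript identifier was not run, because that column is a separate list of the 7608 distinct identifiers and is not paired with miRNAs. Depth limits the 5p arm most, with 12 reads in R.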
